A study of Arabidopsis thaliana with 6 samples.

Results

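The gibberellin receptor genes GID1A (AT3G05120), GID1B (AT3G63010) and GID1C (AT5G27320) were examined in rosette leaves of Arabidopsis thaliana wild type and of the sto2 mutant. Members were taken by gene name: a probe set entered when the probe-gene table paired it with a single gene whose symbol or synonym was one of the 3 names. Each gene had 1 such probe set, giving 3 of 22746 tested probe sets. The first pair of genes lies on chromosome 3 and GID1C on chromosome 5, by their place in the reference gene table.

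Gibberellins are diterpenoid growth hormones that promote germination, leaf expansion, stem elongation and flowering. GID1 proteins are soluble receptors: a bound gibberellin closes a lid over the binding pocket, and the closed receptor then holds a DELLA protein, a repressor of growth genes. The F-box protein SLEEPY1 marks the held DELLA for destruction by the proteasome, which releases growth. Arabidopsis has the 3 receptor genes named here, with largely overlapping roles, and GID1B belongs to a different branch of the family from GID1A and GID1C. Receptor transcripts are themselves part of a feedback loop in Arabidopsis, being higher when gibberellin is scarce.

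RNA came from expanding rosette leaves, leaf 3 to leaf 6, of plants grown in soil for 3 weeks under 16 h light at 22 °C and 8 h dark at 18 °C with no added treatment. The wild type was the Col-0 accession (3 samples), and the other group was a sto2 mutant that the design text calls a null (3 samples). The design text describes the samples as biological replicates and states that targets acting downstream of STO2 were sought. The locus of STO2, the kind of lesion and the number of mutant lines are not in the labels or gene tables used here, so the mutated gene was not read as a check of the labels.

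Each sample was read on 1 single-colour Affymetrix array, with values as linear signal intensity and array medians between 37 and 38.5. Signals of different probe sets depend on their own probes and were not ranked against each other, so how abundant GID1A, GID1B and GID1C transcripts were relative to one another is not given. Each receptor was set instead against 27 probe sets for bacterial transcripts on the same array, whose highest reading ranged from 9.5 to 18.4. The tissue label was checked on marker genes of leaf, root and shoot apex. The listed flower genes AG, PI and AP3 were matched by name to no single-gene probe set, so flower tissue was not checked. RBCS1A of the leaf list and STM and WUS of the shoot apex list were also not matched. Whether unlisted probe sets of the array cover these genes was not examined. The 4 measured leaf photosynthesis genes, RCA, PSAN, PRK and LHCB4.1, summed to between 15485 and 16928 in wild type and between 15966 and 16486 in sto2. The shoot apex genes CLV3 and UFO read at or below the bacterial controls on every array, and the root genes PYK10 and EXPA7 summed to between 22.2 and 30 in wild type and between 16.8 and 22.3 in sto2, with none of these 4 above the controls on all 6 arrays.

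None of the 3 receptor genes passed the test between genotypes, and 29 of 22746 probe sets did (0.127%, limma adjusted p under 0.05, with the Benjamini-Hochberg method applied to every tested probe set). GID1A and GID1B had lower mean signal in sto2, by 13.9% and 32.5%, and their groups did not overlap. GID1C had nearly the same mean in both genotypes, and its groups overlapped. Non-overlapping groups with sto2 lower were found in 10.2% of all tested probe sets, so this separation was common on these arrays.

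GID1A encodes a receptor of the GID1A and GID1C branch. Its signal was 138, 123.2 and 139.9 on wild-type arrays 1, 2 and 3, and 118.9, 113.6 and 113 on sto2 arrays 1, 2 and 3. The sto2 arrays thus lay close together below all wild-type arrays, with a gap of 4.3 signal units between the highest sto2 and the lowest wild-type reading. All 6 readings were far above the bacterial controls, by 6.7 to 13.9 times. The means were 133.7 ± 9.14 in wild type and 115 ± 3.25 in sto2 (SD, n = 3 arrays each). On the log2(signal + 16) scale the difference, sto2 minus wild type, was -0.19 ± 0.08 (SE, 95% interval -0.37 to -0.0056), with a limma p of 0.0450 before and 0.344 after adjustment.

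GID1B, the receptor of the other branch, is known in Arabidopsis for a higher affinity for gibberellin than GID1A and GID1C. Its readings on wild-type arrays 1, 2 and 3 were 23.6, 26.5 and 19.5, and those on sto2 arrays 1, 2 and 3 were 12.3, 19.4 and 15.3. The highest sto2 reading, from replicate 2, and the lowest wild-type reading, from replicate 3, were only 0.1 signal units apart. These readings were close to background: they exceeded the highest bacterial control of their own array by 1.44 to 1.93 times in wild type, by 2.04 times on sto2 array 2 and by 1.125 times on sto2 array 3, while sto2 replicate 1, at 12.3, lay below its control reading of 15.3. The means were 23.2 ± 3.52 in wild type and 15.7 ± 3.56 in sto2 (SD, n = 3 arrays each). The log2(signal + 16) difference was -0.31 ± 0.11 (SE, 95% interval -0.58 to -0.04), with a limma p of 0.0291 before and 0.294 after adjustment. Because GID1B is dim, this value depended on the constant added before the log, being -0.55 with 1 added and -0.13 with 64 added, and neither passed.

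GID1C encodes a receptor of the same branch as GID1A. Its readings were 29.2, 46.9 and 40.2 on wild-type arrays 1, 2 and 3, and 37, 46.5 and 38 on sto2 arrays 1, 2 and 3. Every sto2 reading fell inside the wild-type range, and all 6 readings exceeded the bacterial controls, by 2.12 to 4.89 times. The means were 38.8 ± 8.94 in wild type and 40.5 ± 5.22 in sto2 (SD, n = 3 arrays each), and the log2(signal + 16) difference was 0.05 ± 0.14 (SE, 95% interval -0.27 to 0.38, limma adjusted p = 0.915). Its sign rested on single arrays, since it came to -0.08 when wild type replicate 1, the lowest reading, was left out, and to -0.02 without sto2 replicate 2, the highest sto2 reading.

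**Figure D1:**
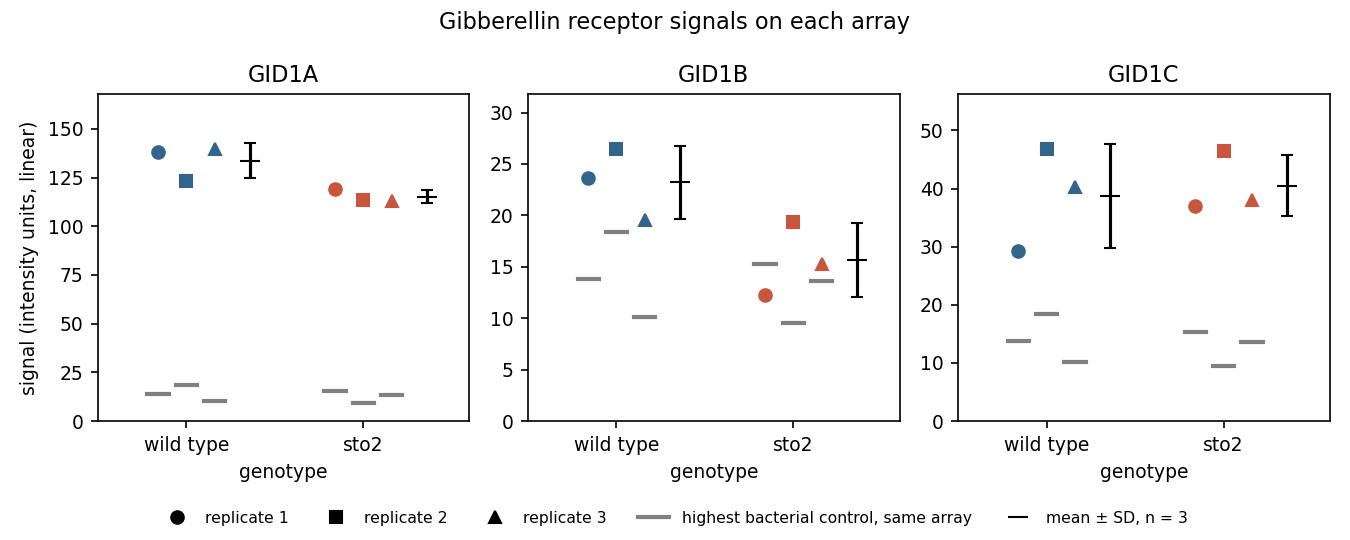
Linear signal of each receptor gene (y axis, intensity units, starting at 0 and scaled per gene) on the 3 wild-type and 3 sto2 arrays, with marker shape for the replicate number, black bars for mean ± SD, and grey bars for the highest bacterial control reading of the same array. GID1A lies well above the controls with sto2 between 113 and 118.9, GID1B lies near them with sto2 replicate 1 below, and the GID1C groups overlap.

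The spread among replicates differed by gene. In wild type the coefficient of variation was 6.84% for GID1A, 15.2% for GID1B and 23.1% for GID1C, and in sto2 it was 2.82%, 22.8% and 12.9%. With these errors, a log2(signal + 16) difference of 0.67 would have been needed for GID1A to pass over all probe sets, 0.98 for GID1B and 1.2 for GID1C. These values are each gene's own SE times the cutoff of the reported setting, so a gene that did not pass lies below its value by construction. They are not a limit of the arrays, since the cutoff changes with the setting. Differences of the size seen in the receptors were widespread: 28.6% of all tested probe sets differed by more than GID1A in either direction, 11.2% by more than GID1B and 72.1% by more than GID1C. At an unadjusted p under 0.05, GID1A and GID1B stood among 1697 probe sets with sto2 lower, 7.46% of those tested. GID1A exceeded that unadjusted threshold in 11 of 17 alternative settings, among them 5 of the 6 with an array left out, and GID1B in 4 of 16, all with an array left out. Over all tested probe sets the median log2 difference was -0.01, and 52.2% had a lower mean in sto2. Among the 3 receptors the middle value was that of GID1A itself, -0.19, with GID1B at -0.31 and GID1C at 0.05.

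RNA quality was read only from the actin control probe sets, whose 3' to 5' ratio had a lower mean in sto2. The log2 ratio of 3' to 5' signal for the older actin control probe sets was 2.57 ± 0.06 in wild type and 2.05 ± 0.25 in sto2 (SD, n = 3 arrays each; 2-sided exact permutation p = 0.1, which is the lowest possible with 3 arrays in each group). Its part in the receptor differences was not tested. In whole-leaf RNA, fewer cells that express a receptor and less receptor RNA per cell cannot be told apart.

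Whether the receptor genes differed unequally between genotypes was asked with ratios taken within each array, as log2 of (signal + 16) of one gene over another. These ratios carry the brightness of each gene's own probes, so only their change between genotypes was compared. The GID1B reading of sto2 replicate 1 lay below its bacterial control, so ratios with GID1B on that array rest on a reading not above background. The GID1B/GID1C ratio was -0.19, -0.57 and -0.66 on wild-type arrays 1, 2 and 3, and -0.91, -0.82 and -0.79 on sto2 arrays 1, 2 and 3. All sto2 values lay below all wild-type values, and the mean moved from -0.47 ± 0.25 to -0.84 ± 0.06 (SD, n = 3 arrays each). The difference of -0.36 reached the smallest p that the exact permutation test of 3 against 3 can give (2-sided, p = 0.1, adjusted p = 0.3 over the 3 pairs), so it could not pass 0.05 in this design. Its size was -0.63 with 1 added before the log, -0.16 with 64 added, -0.32 with readings raised to the bacterial control level, -0.33 without sto2 replicate 1 and -0.22 without wild type replicate 1.

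The remaining pairs overlapped between genotypes. The GID1A/GID1C ratio was 1.77, 1.15 and 1.47 in wild type and 1.35, 1.05 and 1.26 in sto2, a mean difference of -0.24 (exact permutation test, p = 0.3, adjusted p = 0.45, n = 3 arrays each). Wild type replicate 1 held the highest of these values, and without it the difference was -0.09; without wild type replicate 2 it was -0.40. The GID1A/GID1B ratio was 1.96, 1.71 and 2.13 in wild type and 2.25, 1.87 and 2.04 in sto2, a mean difference of 0.12 (exact permutation test, p = 0.5, adjusted p = 0.5, n = 3 arrays each). That difference was -0.01 with 64 added before the log, and it was 0.0091 without wild type replicate 2 and 0.02 without sto2 replicate 1.

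**Figure D2:**
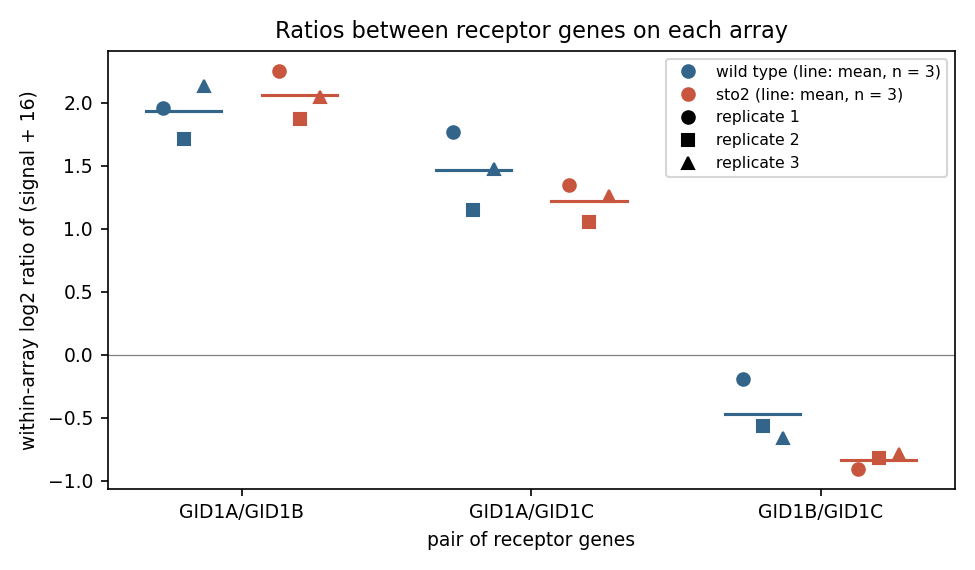
Within-array log2 ratio of (signal + 16) for each pair of receptor genes (y axis), with wild type in blue, sto2 in red, marker shape for the replicate number and lines at group means (n = 3 arrays each). The 3 sto2 values of GID1B/GID1C lie below all wild-type values, and the groups overlap for the other pairs.

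The rest of the gibberellin pathway was read from lists of 69 further genes, of which 13 were paired with a single-gene probe set. Of these 13 genes, 8 had a lower and 5 a higher mean of log2(signal + 16) in sto2, beside 52.2% lower over all tested probe sets. After adjustment 0 passed the limma test in either direction, against 0.127% of all tested probe sets, and 1 had an unadjusted p under 0.05, against 14.1%. Their median log2 difference was -0.0055, beside -0.0081 over all tested probe sets. None of the 48 listed genes for gibberellin synthesis, gibberellin inactivation, DELLA proteins and DELLA partners was matched to a named probe set, so their levels were not analysed here. Neither the hormone's synthesis nor the DELLA repressors can therefore be set beside the receptors.

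All 4 genes listed here for DELLA turnover and modification were matched to a single-gene probe set. SLY1, the F-box gene named above, read 97.1, 108.6 and 70.7 on wild-type arrays 1, 2 and 3, and 81.3, 75.2 and 84.2 on sto2 arrays 1, 2 and 3. The sto2 readings lay inside the wild-type range, with a log2 difference of -0.15 ± 0.14 (SE, adjusted p = 0.687). That difference was -0.30 without wild type replicate 3 (adjusted p = 0.278) and -0.04 without wild type replicate 2, and its adjusted p lay between 0.278 and 0.945 in the alternative settings. Its homologue SLY2, also called SNEEZY, read 22.9 ± 4.03 in wild type and 26.6 ± 9.81 in sto2 (SD, n = 3 arrays each), and 1 reading, sto2 replicate 2 at 37.7, stood above the rest. SPY, an O-fucosyltransferase that acts on DELLA proteins, had a difference of 0.13 ± 0.09 and SEC, the related O-GlcNAc transferase, one of -0.07 ± 0.10 (SE). All 4 genes were above the bacterial controls on every array, and their groups overlapped.

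Genes for movement of gibberellin between cells also overlapped between genotypes. NPF3.1 (AT1G68570), of the nitrate and peptide transporter family and known to import gibberellin, read 136 ± 35.8 in wild type and 113 ± 3.105 in sto2 (SD, n = 3 arrays each). The wide wild-type spread came from 96.8 on array 1 against 166.9 and 144.8 on arrays 2 and 3. The log2 difference of NPF3.1 (AT1G68570) was -0.21 ± 0.17 (SE), and it was -0.41 without wild type replicate 1 (adjusted p = 0.138) and -0.06 without wild type replicate 2. SWEET13 and SWEET14, sugar transporters that also carry gibberellin, had log2 differences of -0.30 ± 0.16 and 0.11 ± 0.28 (SE). Both were dim, with wild-type means of 26.1 and 15.0, and neither exceeded the controls on all arrays.

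Of 14 loci entered on a list for the GASA family of gibberellin-regulated peptides, 6 were matched to a single-gene probe set. The gene tables used here name these 6 only by locus, so no family name is given to them. AT1G22690 read 458.3, 585.7 and 441.3 on wild-type arrays 1, 2 and 3, and 691.3, 587.7 and 687.5 on sto2 arrays 1, 2 and 3. The groups did not overlap, though wild type replicate 2 and sto2 replicate 2 were nearly equal, and the log2 difference of 0.40 ± 0.13 (SE) did not pass (adjusted p = 0.2503). Non-overlapping groups with sto2 higher were found in 9.01% of all tested probe sets. AT2G14900 had a log2 difference of -0.19 ± 0.11 (SE). The other measured loci, AT2G39540, AT5G59845, AT2G18420 and AT2G30810, had differences of -0.02, 0.11, -0.0055 and -0.0046, and AT2G30810 read at or below the bacterial controls throughout.

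**Figure D3:**
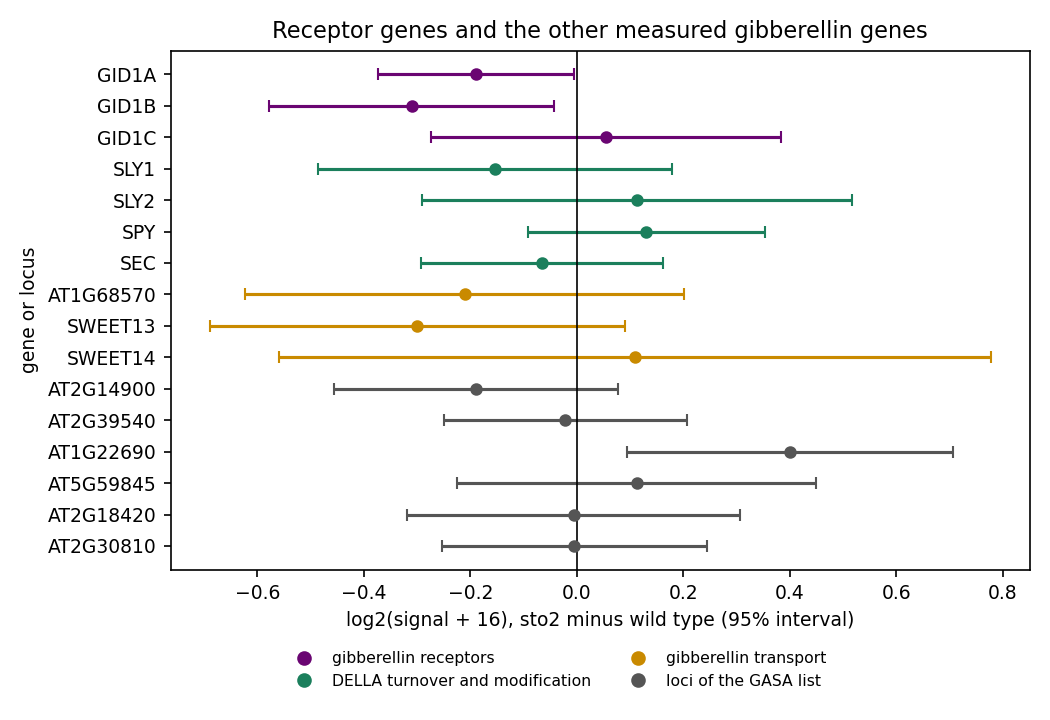
Difference in log2(signal + 16), sto2 minus wild type (x axis), with 95% limma intervals (n = 3 arrays per genotype), for the 3 receptor genes and the 13 other measured genes of the gibberellin lists; AT1G68570 is NPF3.1. The unadjusted intervals of GID1A, GID1B and AT1G22690 leave out 0, those of the other genes span it, and no gene passed after adjustment.

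Likeness of the receptors over the 6 arrays was measured as the root mean square distance between log2(signal + 16) profiles, each centred on its own mean, as a description with no test. GID1A and GID1B were 0.18 apart, GID1A and GID1C 0.23, and GID1B and GID1C also 0.23. The pool for comparison was 7755 single-gene probe sets above the bacterial controls on all 6 arrays. Of these, 51.1% were closer to GID1A than GID1B was, and 78.4% were closer to GID1A than GID1C was. Seen from GID1B, 19.1% of the pool were closer than GID1A was and 51.1% were closer than GID1C was. From GID1C, 63.9% were closer than GID1A was and 64.3% were closer than GID1B was. This distance depends on the size of the changes as well as on their shape. A nearly flat profile can therefore lie closer to a receptor than another receptor does. How many of the closer probe sets were of that kind was not counted.

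The profiles nearest to each receptor came from genes known here mostly by locus. For GID1A these were AT3G09000, listed in the gene table as BPP2, AT5G04980 and AT2G36410, at distances of 0.0249, 0.0257 and 0.0268. Their log2 differences between genotypes were -0.19, -0.22 and -0.1954. AT4G39420, AT2G37650 and AT5G51740 were nearest to GID1B, at 0.0313, 0.0371 and 0.0450, and had differences of -0.33, -0.35 and -0.28. Those nearest to GID1C were AT3G56160, AT2G05320 and AT1G13380, at 0.0375, 0.0455 and 0.0479. None of these 9 genes passed the limma test. How near the closest neighbours of other genes lie was not measured. The 3 nearest changed with the constant added before the log. For GID1A, GID1B and GID1C in order, 1, 0 and 1 of the names given here were kept with 64 added. With 1 added, 1, 1 and 2 were kept, with quantile normalization 3, 3 and 2, and with median centring 3 for each.

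**Figure D4:**
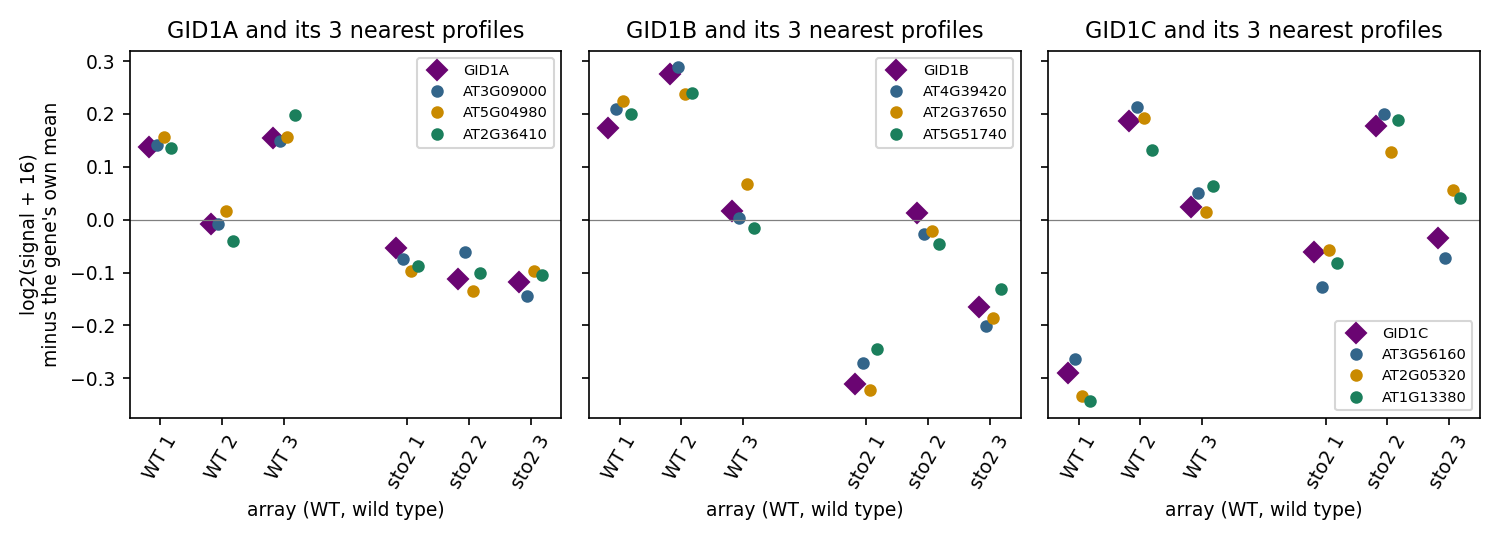
Log2(signal + 16) minus each gene's own mean (y axis) on the 6 arrays (x axis), for each receptor gene (purple diamonds) and the 3 single-gene probe sets nearest to it (circles). GID1A and GID1B are higher on wild-type arrays, and GID1C is lowest on wild type replicate 1. The neighbours, chosen for their likeness, lie within a root mean square distance of 0.0479 or less.

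The receptor differences were recomputed under other settings, including each array left out in turn. GID1A was lower in sto2 in all 17 of them, with log2 differences from -0.24 to -0.14, and GID1B in all 16 that tested it, from -0.55 to -0.13. As the groups of both genes did not overlap, leaving out or weighting arrays or changing the constant could not reverse the sign. The dimmest filters, the robust prior with a trend, the single-gene limit and the replicate block left the difference itself unchanged. The kept sign is thus mostly the non-overlap restated. Neither gene passed in any setting that tested it, the lowest limma adjusted p being 0.217 for GID1A and 0.236 for GID1B. GID1C ran from -0.08 to 0.16.

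**Figure D5:**
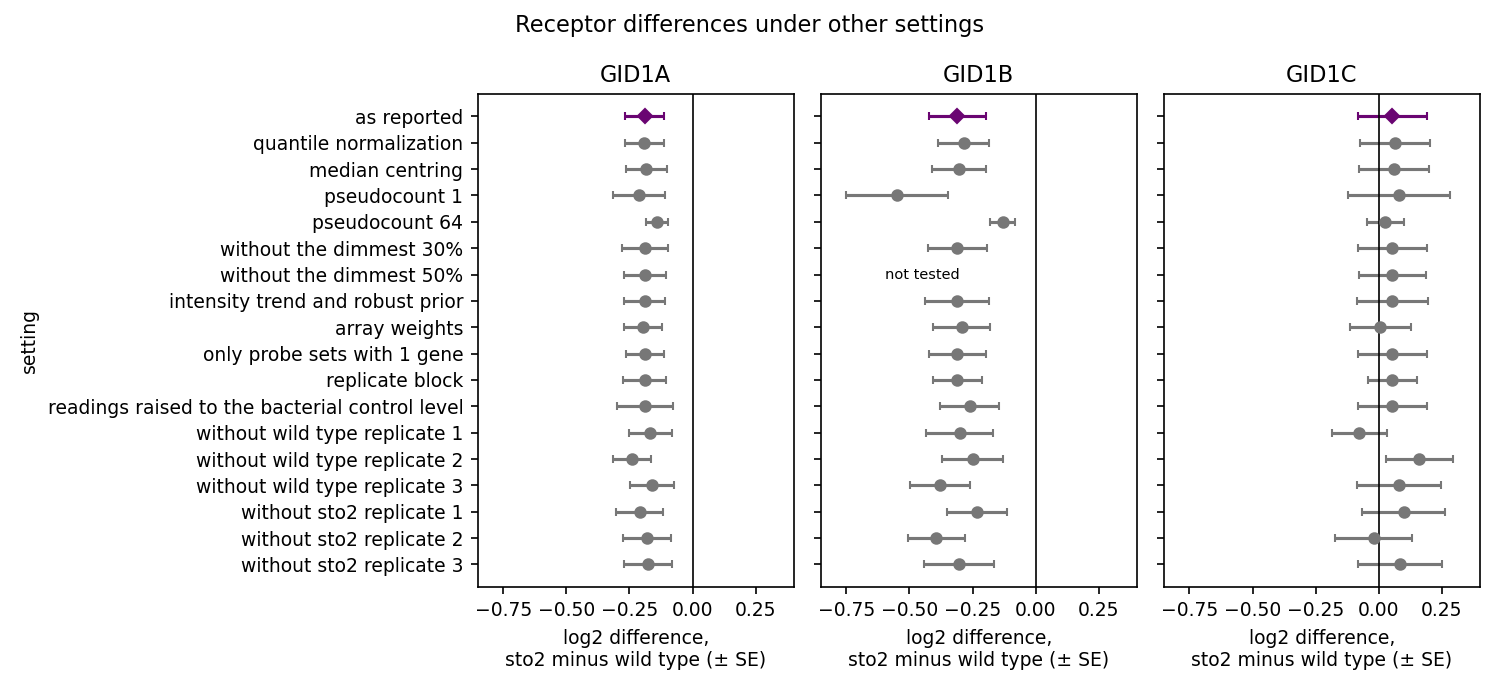
Log2 difference, sto2 minus wild type, with SE (x axis), for each receptor gene under the reported setting (purple) and the alternatives (grey, y axis). GID1A and GID1B stay below 0 wherever tested, GID1B moves most with the constant added before the log, and GID1C crosses 0.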

How the data were processed

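The deposited values were linear signal intensity per probe set, made by the authors. Per the labels' protocols, RNA was purified on Qiagen RNeasy columns, and labelling, hybridisation and scanning were done by a company authorised by Affymetrix; how probes were summarised is not stated there. The 2% trimmed mean was 100.009 on each array, so values were used as scaled. Of 22810 probe sets, 64 controls were left out. Names came from the platform's gene table (13513 tested probe sets with 1 gene, 503 with several, 8730 unlisted) and a RefSeq table of assembly TAIR10.1. No source used here names a genome build for the array; coordinates and sequences were not used here.

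The test was 2-sided and ran in limma 3.58.1 under R 4.3.3 on log2(signal + 16), with lmFit, eBayes and Benjamini-Hochberg adjustment over 22746 probe sets. That scale understates changes of dim genes. Ratios were compared by exact permutation of 20 splits. Groups came from the sample titles; the number of arrays limits precision. Named genes were the receptors, every measured gene of the gibberellin lists, and the 3 nearest profiles per receptor. Members and lists were chosen with earlier results of these data known. In a test on simulated data that changed 200 of 22746 probe sets, 0% of those with a log2 change of 0.3 were called, 82.6% at 1 and 91.5% at 2, with 4 false calls; the changed probe sets came from the brighter ones. Alternatives were quantile normalization, median centring, constants of 1 and 64, leaving out the dimmest 30% or 50%, array weights, a robust prior with an intensity trend, only single-gene probe sets, a replicate block, each array left out and, added after seeing the data, readings raised to the bacterial control level.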

Additional observations from a re-analysis of the deposited data

How the results depend on the processing

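The 3 arrays per genotype and, for GID1B, signal near the bacterial controls limit these values. The count of called probe sets, 29 as reported, was 17 and 83 with constants of 1 and 64, 147 and 227 without the dimmest 30% and 50%, 72 with an intensity trend and robust prior, 70 with array weights, 6 among single-gene probe sets, 262 with readings raised to the control level, and 5 to 22 with single arrays left out (22, 7 and 11 for the wild-type arrays in order, then 8, 7 and 5 for the sto2 arrays); no receptor was called in any. GID1B was not tested without the dimmest 50%, since that filter drops it, and SLY2, SWEET13, SWEET14 and 4 of the GASA-list loci were dropped with it; both filters dropped AT2G30810 and the root and shoot apex markers. GID1C ran from -0.0775 (without wild type replicate 1) to 0.16 with single arrays left out, and the GID1A/GID1B ratio difference was -0.0106 with a constant of 64.

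The labels do not say whether a replicate number marks a shared plant or batch. Over all tested probe sets no clear pairing by number was seen. The deviations of same-numbered arrays correlated at -0.23, -0.14 and 0.07, and 1 of 6 arrays correlated best with its own number. Such correlations cannot exclude a pairing, and the GID1C readings had the same order by replicate number in both genotypes. With the replicate block the count was 2, and GID1A, GID1B and GID1C kept their differences with adjusted p of 0.482, 0.398 and 0.878. Their SEs with the block were 0.085, 0.098 and 0.098, against 0.077, 0.11 and 0.14 without it. Ratio differences within replicate numbers had an exact sign-flip p of 0.5 for GID1A/GID1B and of 0.25, the smallest it allows, for the other pairs.

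Over 21 gibberellin list and marker genes, 314 of 341 values under the alternatives kept their sign and 0 passed. Part of these values could not change sign. The dimmest filters, the robust prior with a trend, the single-gene limit and the replicate block leave the difference itself as reported. Sign changes fell on 9 genes. AT2G39540 was 0.000687 with quantile normalization and 0.0139 with array weights. AT2G18420 was 0.0189 with quantile normalization, 0.000751 with median centring, 0.0123 with array weights and 0.0498 with readings raised to the control level. AT2G30810 was 0.0183 with quantile normalization, 0.0017 with median centring and 0.0088 with a constant of 1. CLV3 was -0.0598 with readings raised to the control level. With single arrays left out, AT2G39540 ran from -0.0794 to 0.0472, AT2G18420 from -0.11 to 0.11, AT2G30810 from -0.0841 to 0.0645, AT5G59845 from -0.0494 to 0.22, SWEET14 from -0.0823 to 0.44, SLY2 from -0.0654 to 0.24, SEC from -0.13 to 0.0040 and UFO from -0.13 to 0.0074. The cause of these changes was not tested.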
